A study of Mus musculus with 4 samples.

Results

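Cytosolic ribosomal proteins build the large (Rpl genes) and small (Rps genes) subunits of the ribosome outside mitochondria. Members were chosen by gene symbol: Rpl or Rps followed by a number, together with Rplp0, Rplp1, Rplp2 and Rpsa, leaving out the Rps6k kinases, the binding protein Rps19bp1 and pseudogenes. A member had to have a probe set annotated to its symbol alone, and its probe set of highest mean represented it. The rule found 47 genes among 12393 with such a probe set, of which 42 are core proteins and 5 are paralogs (Rpl3l, Rpl7l1, Rpl22l1, Rpl39l and Rps27l). A further 28 ribosomal protein genes, among them Rpl3, Rpl5, Rpl10, Rplp1 and Rps16, are annotated only on probe sets that also carry a pseudogene or another gene, so no value is given under their names.

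The arrays hold gastrocnemius RNA of MCK-PPARb transgenic mice (n = 2 arrays) and of their non-transgenic littermates (n = 2 arrays), all at 6 weeks of age. The transgenic mice overexpress PPARbeta, the nuclear receptor encoded by Ppard, and the labels call the overexpression specific to muscle. MCK is the usual abbreviation of muscle creatine kinase, whose promoter is active in muscle fibres. The labels call the arrays biological replicates but do not tie them to single animals, so p-values measure the spread between these arrays, which may be technical. In whole muscle, fewer cells of a type and less RNA per cell cannot be told apart.

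Ribosomal protein genes are transcribed in every cell type, and in mammals many of their messages begin with a run of pyrimidines, the 5-prime terminal oligopyrimidine tract, through which mTORC1 and the RNA-binding protein Larp1 control translation. The array reads the amount of message and not its translation. Some ribosomal proteins have paralogs that replace them in particular tissues. Skeletal muscle is known for Rpl3l, which takes the place of Rpl3 in mature fibres.

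The windows below show runs of pyrimidines around the annotated starts of some of the members named in the results and of Fau. Rpl3l, which has no such run, stands beside them. Each holds 20 bases before and 30 bases from the RefSeq start of the gene (GRCm38.p6), read 5′ to 3′ on the gene's strand, and capitals mark the longest run of at least 7 C or T letters. They lie at chr4:86857338-86857387 (minus strand) for Rps6, chr4:136053364-136053413 (minus) for Rpl11, chr10:128626477-128626526 (minus) for Rps26, chr3:28805488-28805537 (plus) for Rpl22l1, chr17:24727806-24727855 (plus) for Rpl3l and chr19:6057927-6057976 (plus) for Fau. Fau encodes a ubiquitin-like protein fused to a small subunit protein and is no member by its symbol.
Rps6: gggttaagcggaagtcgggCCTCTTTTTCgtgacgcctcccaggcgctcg
Rpl11: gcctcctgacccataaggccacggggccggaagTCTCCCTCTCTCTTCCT
Rps26: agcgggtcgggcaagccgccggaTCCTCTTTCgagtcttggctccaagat
Rpl22l1: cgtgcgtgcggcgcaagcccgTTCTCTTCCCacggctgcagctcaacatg
Rpl3l: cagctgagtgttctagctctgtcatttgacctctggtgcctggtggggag
Fau: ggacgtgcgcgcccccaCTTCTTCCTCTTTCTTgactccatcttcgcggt

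RefSeq promoters were matched for 42 of the 47 members. A run of at least 7 C or T letters on the gene's strand lay in this window in 30 of them (71.4%), against 8634 of 27025 genes with a promoter (31.9%). The window of Rpl22l1 holds a run of 10 and that of Rpl3l none above 5. Other members named below lack such a run as well, with a longest run of 3 in Rpl41, 4 in Rps28 and 5 in Rpl22. A cut of 7 letters around an annotated start does not show whether their messages begin with a shorter run of pyrimidines. The letters CCGGAAG, the core bound by ETS factors such as GABP, were searched on both strands of the 300 bases and were found in 21 members (50%), against 9.93% of all genes. Such a match is a description of the letters, not a site. The marked run begins 1 base before the annotated start in Rps6 and 3 bases before it in Fau, and spans the start in both. It begins 1 base after the start in Rpl22l1, 3 after it in Rps26 and 13 after it in Rpl11. The windows of Rpl22l1, Rps26 and Rpl11 thus do not show a message that begins with the run.

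The arrays were scaled to 1 mean level, and the median signal lay between 431 and 513 units. Ppard read 126049 and 98797 signal units in MCK-PPARb muscle, against 2169 and 2825 in non-transgenic muscle. Acta1, the skeletal actin gene that marks muscle fibres, read 136104 and 118002 in MCK-PPARb and 223921 and 113926 in non-transgenic muscle. Non-transgenic replicate 1 gave the lowest of the 4 signals for 26 of 43 members, and MCK-PPARb replicate 2 gave the highest for 22. The log2 gap between the non-transgenic arrays, regardless of sign, had a median of 0.24 over the members and 0.28 over all genes tested. The gap was thus no wider at the members. For Actb, signal at the 3′ control probe set divided by that at the 5′ one was 0.579 and 0.558 in MCK-PPARb muscle. In non-transgenic muscle it was 0.481 (replicate 1) and 0.592 (replicate 2). For Gapdh the ratios lay closer together, at 0.840 and 0.861 in MCK-PPARb muscle, against 0.818 (replicate 1) and 0.850 (replicate 2) in non-transgenic muscle. The part of RNA quality in the results was not tested.

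No ribosomal protein gene passed the test between the groups. Of the 47 members, 43 had a mean log2 signal over the 4 arrays above the filter level of 444 signal units and were tested, and 0 of them reached an adjusted p under 0.05 in limma (lowest adjusted p = 0.317). Over all 6841 genes tested, 0.731% were called at that threshold. At an unadjusted p under 0.05 there were 2 members, Rpl22l1 and Rps26, against 10.9% of all genes. The differences ran from -1.01 for Rpl22l1 to 0.89 for Rps27 on the log2 scale (MCK-PPARb minus non-transgenic), and 38 of 43 lay within 0.5 of 0.

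The precision sets what this means for a single gene. The 95% interval of the difference lay wholly within 2-fold in either direction for 36 of the 43 members, and wholly within a log2 difference of 0.5 for 6. For 36 of 43 members the larger of the within-group gaps exceeded the difference between the groups. A 2-fold change was therefore outside the interval for most members, while a change of 1.41-fold was inside it for most.

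**Figure D1:**
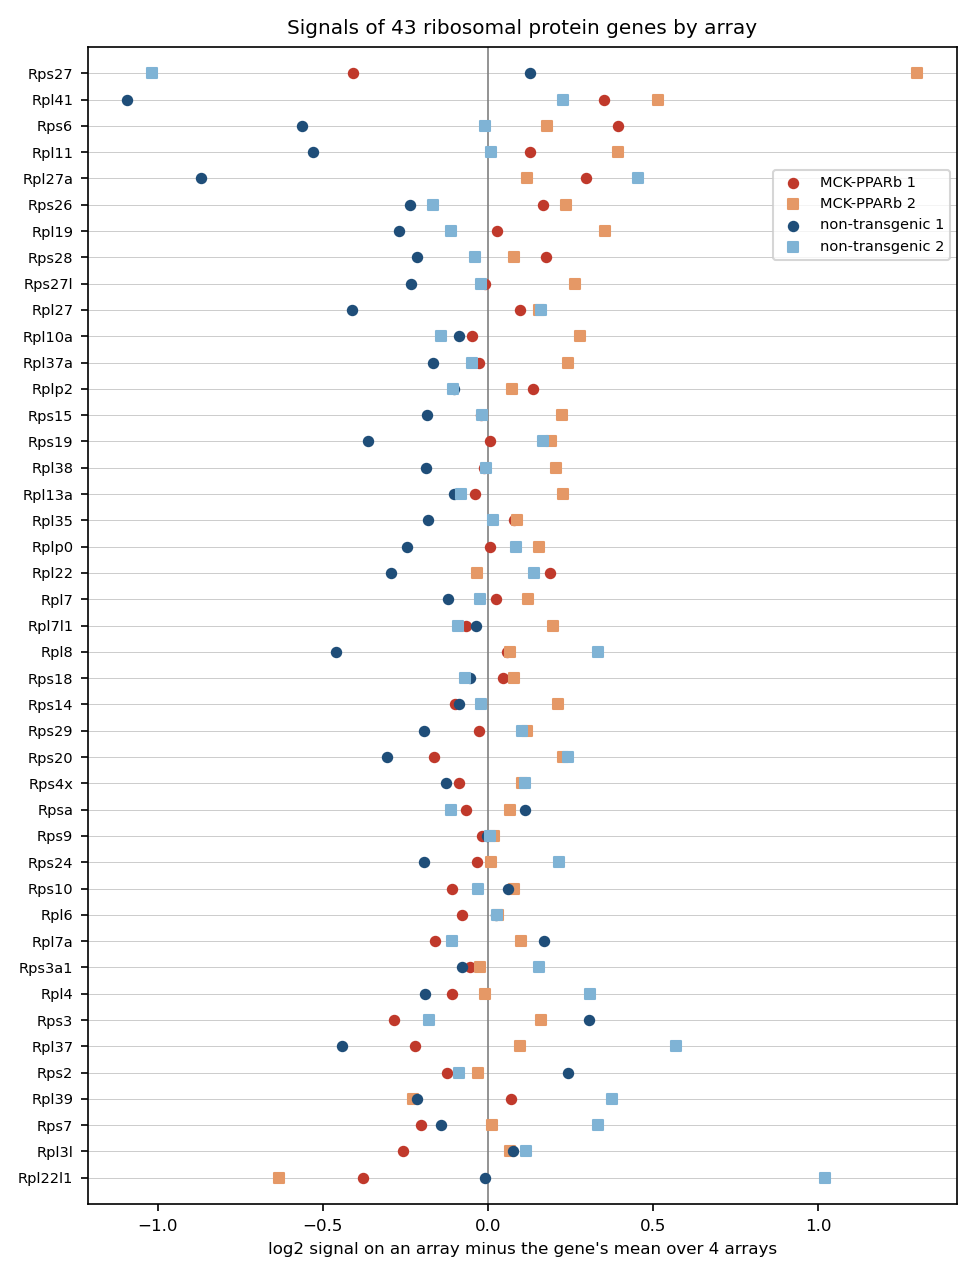
Log2 signal of each tested ribosomal protein gene on each array, minus that gene's mean over the 4 arrays; each point is 1 array, red and orange for MCK-PPARb, dark and light blue for non-transgenic, and genes run down by their difference. Non-transgenic replicate 1 is the lowest point for 26 of 43 genes, and the colours are mixed in most rows.

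The members leaned slightly to higher signals in MCK-PPARb muscle. Their median difference was 0.13 on the log2 scale, against 0.011 over all genes tested, and 28 of 43 differences were above 0, against 51.2% of all genes. The groups did not overlap, with MCK-PPARb higher, for 14 members (32.6%), against 22.2% of all genes, and with MCK-PPARb lower for 2 members (4.65%), against 20.8%. Those 2 are the paralogs Rpl3l and Rpl22l1, so among the 39 core members tested 13 lay above and 0 below. The size of this lean depended on single arrays. The median of the members exceeded that of all genes by 0.12 as reported, by 0.046 without non-transgenic replicate 1, by 0.058 without MCK-PPARb replicate 2 and by 0.22 without non-transgenic replicate 2. With non-transgenic replicate 1 left out, the groups did not overlap, with MCK-PPARb higher, for 39.5% of the members and 39.0% of all genes, and without MCK-PPARb replicate 2 for 34.9% and 35.0%, so the share of members was then near that of all genes. Centring the arrays on their medians moves every difference by -0.11 and left the median of the members 0.12 above that of all genes. The groups then did not overlap for 2 members with higher signals in MCK-PPARb muscle (4.65%), against 13.8% of all genes, and for 2 with lower signals (4.65%), against 26.8%.

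The summed signal of the 47 members made up 2.26% and 2.51% of all signal on the MCK-PPARb arrays, against 1.98% and 2.40% on the non-transgenic arrays. The groups overlapped, since MCK-PPARb replicate 1 lay below non-transgenic replicate 2.

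The 20 tested core genes of the large subunit had a median difference of 0.18, with 15 above 0 (75%). The groups did not overlap for 9 of them (45%), all with higher signals in MCK-PPARb muscle. The 19 of the small subunit had a median of 0.064, with 11 above 0 (57.9%) and 4 without overlap (21.1%), also all higher. Of all genes, 51.2% had differences above 0, 22.2% lay higher without overlap and 20.8% lower. The share of the small subunit that lay higher was thus near that of all genes. Neither subunit had a member that passed, and the difference between the subunits was not tested.

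**Figure D2:**
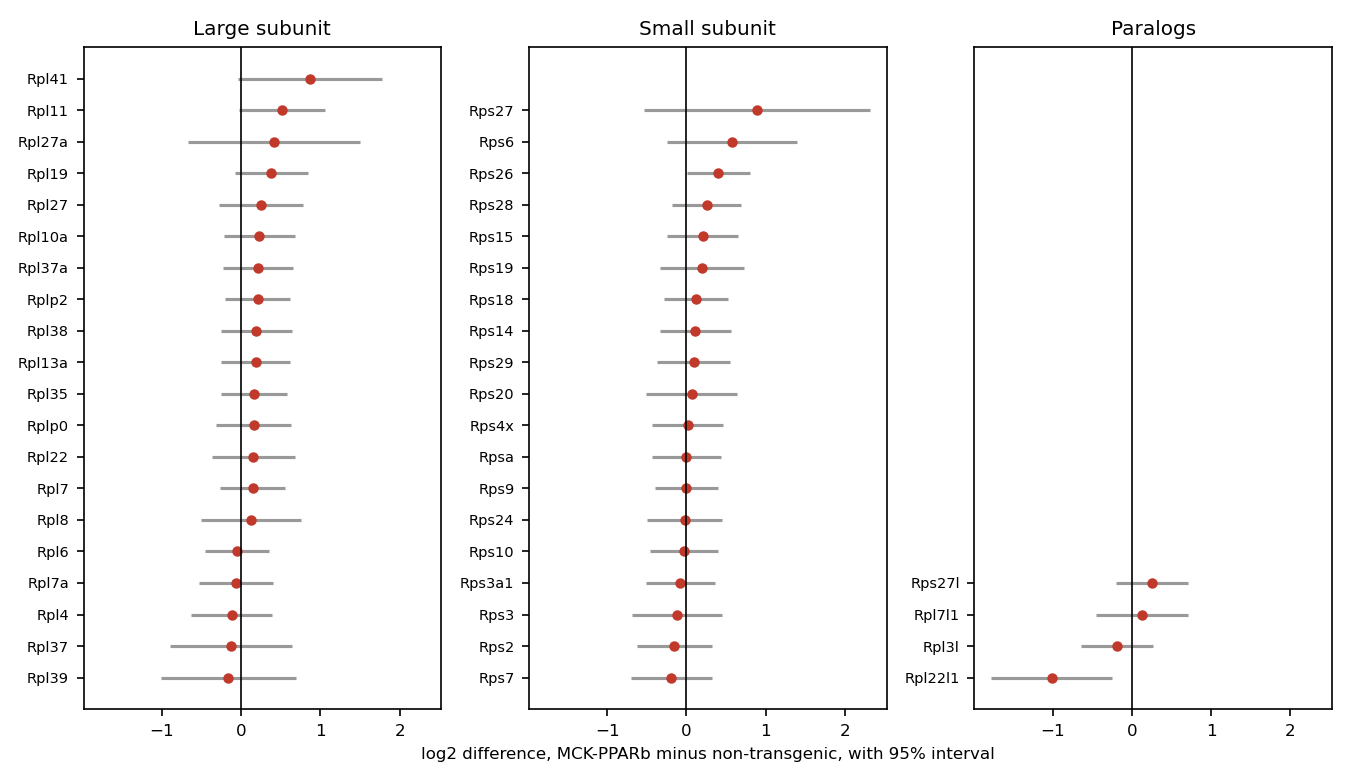
Log2 difference of each tested member (MCK-PPARb minus non-transgenic, points) with its 95% interval from limma (bars), for core genes of the large subunit, core genes of the small subunit and paralogs. The interval of Rpl22l1 lies wholly below 0, that of Rps26 just above it, and all others include 0.

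In the large subunit, Rpl41, which encodes a very short basic protein at the interface of the subunits, had the largest difference. It read 54386 and 60996 signal units in MCK-PPARb muscle, against 20015 and 49947 in non-transgenic muscle. Both MCK-PPARb arrays were higher, but the low value of non-transgenic replicate 1 set the size of the gap. The log2 difference was 0.87 ± 0.39 (SE, adjusted p = 0.493 with limma), and a second probe set gave 0.78 with the same low array. Without non-transgenic replicate 1 it was 0.21. Without non-transgenic replicate 2 it was 1.52 with an adjusted p of 0.00642 with limma, in a fit that sets both MCK-PPARb arrays against the low array alone and assumes that it varies as they do. The alternatives together spanned adjusted p of 0.00642 to 0.817.

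Rpl11 binds the 5S ribosomal RNA together with Rpl5 and, when free of the ribosome, the p53 regulator Mdm2. Its signals were 12349 and 14868 in MCK-PPARb muscle, against 7842 and 11388 in non-transgenic muscle, without overlap. The log2 difference was 0.52 ± 0.23 (SE, adjusted p = 0.491 with limma), and it was 0.25 without non-transgenic replicate 1 and 0.79 without non-transgenic replicate 2. For Mdm2 itself the log2 difference was 0.21 ± 0.21 (SE), which failed the test.

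Rpl19, which reaches across to the small subunit, read 30606 and 38419 units in MCK-PPARb and 24893 and 27777 in non-transgenic muscle. All 4 arrays kept the groups apart, with a log2 difference of 0.38 ± 0.20 (SE, adjusted p = 0.556 with limma). Rpl10a, a protein of the flexible stalk through which spent tRNA leaves, read 31338 and 39253 in MCK-PPARb and 30454 and 29356 in non-transgenic muscle (log2 difference 0.23). Rpl10a was higher mainly through MCK-PPARb replicate 2.

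Rplp0 and Rplp2 belong to the acidic stalk that recruits translation factors. Rplp2 read 49046 and 46892 in MCK-PPARb muscle, against 41519 and 41444 in non-transgenic muscle, a log2 difference of 0.21 with no overlap. Rplp0 read 55709 and 61814 in MCK-PPARb and 46790 and 58895 in non-transgenic muscle. Its groups overlapped, and its log2 difference of 0.16 was -0.0052 without non-transgenic replicate 1. Rpl38, which the translation of Hox messages in mouse embryos requires, had 47493 and 55239 units in MCK-PPARb and 42047 and 47710 in non-transgenic muscle, with overlap and a log2 difference of 0.19.

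Rpl7 showed how far probe sets can disagree. Its chosen probe set gave a log2 difference of 0.15, while its other tested probe sets gave -0.29 and -0.18. Rpl22, an RNA-binding protein of the large subunit, had 5052 and 4334 units in MCK-PPARb and 3612 and 4882 in non-transgenic muscle on its chosen probe set, a log2 difference of 0.16 with overlap. A second probe set gave 2086 and 1736 in MCK-PPARb and 2705 and 2673 in non-transgenic muscle, a log2 difference of -0.50 ± 0.22 (SE, adjusted p = 0.484 with limma).

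Rpl27a and Rpl39 lay near the filter level. Rpl27a read 783 and 693 in MCK-PPARb and 349 and 874 in non-transgenic muscle, and Rpl39, which lines the exit tunnel for new proteins, read 607 and 494 in MCK-PPARb and 499 and 751 in non-transgenic muscle. Their log2 differences of 0.41 ± 0.46 and -0.16 ± 0.36 (SE) both had 95% intervals that include 0. A dim probe set does not mean a low message, since levels of different probe sets cannot be compared.

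In the small subunit, Rps26, which touches the messenger near its exit from the ribosome, was the core gene with the smallest p. It read 24441 and 25648 units in MCK-PPARb muscle, against 18483 and 19385 in non-transgenic muscle. The arrays of each group lay close together and the groups did not overlap, yet the log2 difference of 0.40 ± 0.17 (SE) did not pass over all genes (adjusted p = 0.470 with limma). Its difference ran from 0.30 to 0.44 over the alternatives.

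Rps28 read 64511 and 60354 in MCK-PPARb and 49194 and 55525 in non-transgenic muscle, a log2 difference of 0.26, and its 2 other tested probe sets gave 0.25 and 0.20. Rps6, the small subunit protein that S6 kinases phosphorylate, read 794 and 684 in MCK-PPARb and 409 and 601 in non-transgenic muscle. The groups did not overlap, but the probe set was dim and the log2 difference of 0.57 ± 0.35 (SE) did not pass (adjusted p = 0.623 with limma). It ran from 0.20 to 0.85 over the alternatives. Rps27, a zinc-binding protein, had 551 and 1803 units in MCK-PPARb and 800 and 361 in non-transgenic muscle. Its log2 difference of 0.89 ± 0.61 was the largest among the members above 0, while the arrays within each group differed by more than the groups, and it ran from 0.036 to 1.75 over the alternatives.

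Several small subunit genes had nearly equal means. Rpsa, also known as a laminin receptor, read 23920 and 26249 in MCK-PPARb and 27090 and 23184 in non-transgenic muscle, a log2 difference of -0.00020 with an interval of -0.43 to 0.43. Rps4x, the X-linked S4 gene, had a difference of 0.015 and an interval of -0.43 to 0.46, and Rps10 one of -0.031 and an interval of -0.46 to 0.40. The 4 other tested probe sets of Rps10 gave 0.083, 0.25, 0.27 and 0.38, all above 0, and none passed. Rps29 (0.090) and Rps2 (-0.15) overlapped between the groups as well.

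**Figure D3:**
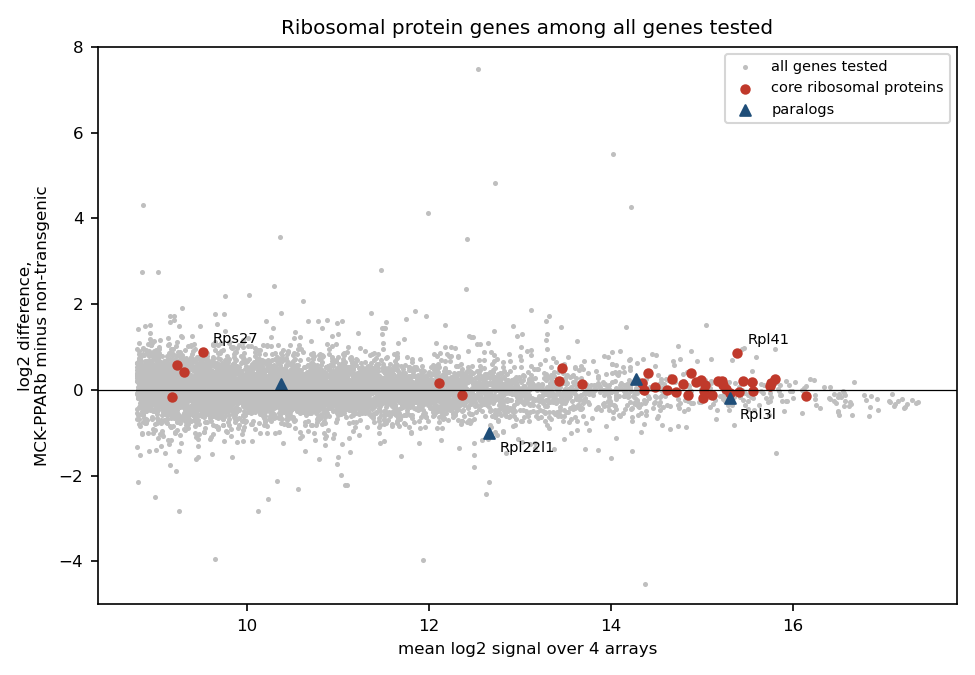
Log2 difference (MCK-PPARb minus non-transgenic) against mean log2 signal over the 4 arrays for all 6841 genes tested (grey), core ribosomal protein genes (red circles) and paralogs (blue triangles). Most members sit at the bright end close to 0, with Rpl22l1 below at -1.01 and Rps27 and Rpl41 above at 0.89 and 0.87.

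Among the paralogs, Rpl22l1, a close relative of Rpl22 that can take its place, had the largest difference of all members in size. It read 4971 and 4172 units in MCK-PPARb muscle, against 6428 and 13134 in non-transgenic muscle. Both MCK-PPARb arrays were lower, and the non-transgenic arrays themselves differed by more than a log2 value of 1. The log2 difference was -1.01 ± 0.33 (SE, interval -1.78 to -0.24), which did not pass over all genes (adjusted p = 0.317 with limma).

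The call on Rpl22l1 depended on the processing. Without non-transgenic replicate 1 the log2 difference was -1.53 with an adjusted p of 0.0143, and without non-transgenic replicate 2, the array with the high signal, it was -0.50. Such a fit assumes that the lone non-transgenic array varies like the MCK-PPARb arrays, and it drops the wide gap between the non-transgenic arrays. With all 4 arrays and the replicate number as a block the adjusted p was 0.0490. Adjusted p ran from 0.0143 to 0.676 over the alternatives, and the difference stayed below 0 in all of them.

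Rpl3l, the muscle paralog of Rpl3, read 33794 and 42311 units in MCK-PPARb muscle, against 42633 and 43824 in non-transgenic muscle. MCK-PPARb replicate 1 was low, and MCK-PPARb replicate 2 lay just under the non-transgenic arrays. The log2 difference was -0.19 ± 0.19 (SE, interval -0.65 to 0.26, adjusted p = 0.795 with limma). Rpl3, which it replaces in mature fibres, is among the genes with no probe set of their own, so their balance was not measured.

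Rps27l, a relative of Rps27 known as a p53 target, read 19640 and 23701 in MCK-PPARb and 16792 and 19470 in non-transgenic muscle. The groups did not overlap on this probe set, and the log2 differences of its 3 tested probe sets were 0.25, 0.16 and 0.25. Rpl7l1, a relative of Rpl7 with a part in assembly of the large subunit, read 1269 and 1524 in MCK-PPARb and 1297 and 1248 in non-transgenic muscle, a log2 difference of 0.13. Rpl39l, known in mice from the testis, lay below the filter, at 286 and 138 in MCK-PPARb and 127 and 136 in non-transgenic muscle.

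The other members below the filter were Rps25, Rpl12 and Rpl14, which were not tested. Rps25 read 198 and 543 in MCK-PPARb and 544 and 511 in non-transgenic muscle. Rpl12 read 316 and 270 in MCK-PPARb and 260 and 244 in non-transgenic muscle. Rpl14 read 168 and 319 in MCK-PPARb and 239 and 190 in non-transgenic muscle. Their signals ran from 168 to 544 units, and only Rpl12 kept the groups apart among the 3.

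The 47 members have 99 probe sets of a single symbol, of which 79 were tested and 0 passed. For 19 genes with several tested probe sets the gap between them had a median of 0.17 on the log2 scale, and for 7 of these genes the probe sets differed in sign. The largest gap, 0.65, was that of Rpl22. Of the chosen probe sets, 14 of 43 carry the suffix _x_at or _s_at, which marks probes that can bind several transcripts, and ribosomal protein genes have many processed copies in the genome. A further 87 tested probe sets carry a member or another ribosomal protein gene together with other symbols. None of the 87 passed, 2 had an unadjusted p under 0.05, and their median difference was 0.098, with 60 above 0.

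Fau gave the smallest p among the listed partners of the ribosome. It read 24320 and 23377 units in MCK-PPARb muscle, against 14943 and 14688 in non-transgenic muscle. The arrays within each group nearly coincided and the groups lay clearly apart, with a log2 difference of 0.69 ± 0.17 (SE, interval 0.29 to 1.09), but it did not pass over all genes (adjusted p = 0.182 with limma, 0.0761 to 0.741 over the alternatives).

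The elongation list holds factors that move the ribosome along the message and genes tied to them, such as the kinase gene Eef2k. Its 8 tested genes had a median log2 difference of 0.031. Eef1a2, the form of the factor that delivers tRNA in adult muscle, read 117004 and 99901 in MCK-PPARb and 151655 and 90339 in non-transgenic muscle. Its relative Eef1a1 read 47721 and 55563 in MCK-PPARb and 45089 and 42761 in non-transgenic muscle. The log2 differences were -0.11 for Eef1a2, 0.23 for Eef1a1 and -0.25 for Eef2, the translocation factor. None of the 8 passed, and none had an unadjusted p under 0.05.

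The initiation list holds initiation factors and some of their regulators, such as Eif4ebp1 and Eif2ak1. Of its 35 tested genes 0 passed, and the median log2 difference was -0.073. An unadjusted p under 0.05 was reached by 3 of the 35, against 10.9% of all genes. Eif4e, which binds the cap of the message, read 7906 and 8710 in MCK-PPARb and 12738 and 10923 in non-transgenic muscle (log2 difference -0.51 ± 0.19, adjusted p = 0.378 with limma). Eif3f, a subunit of the factor that brings the small subunit to the message, had a difference of 0.56 ± 0.19, and Eif2b1, a subunit of the exchange factor for Eif2, one of -0.52 ± 0.20. The differences of these 3 factors thus pointed both ways.

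Genes of ribosome assembly and of ribosomal DNA transcription had a median log2 difference of -0.13 over 41 tested genes, with 14 above 0 and 27 below. The groups did not overlap for 4 with higher and 12 with lower signals, which is 9.76% and 29.3% of them, against 22.2% and 20.8% of all genes. None passed and 2 had an unadjusted p under 0.05. These were Nhp2, a protein of the particles that modify ribosomal RNA (-0.54 ± 0.21, adjusted p = 0.424 with limma), and Nop14, a small subunit assembly factor (0.73 ± 0.29). Ltv1 and Tsr1, late assembly factors of the small subunit, had differences of -0.53 and -0.73.

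In the list of other messages with a terminal pyrimidine tract and ribosome-bound factors, 0 of 14 tested genes passed, and the median was -0.067. Fau was the only one with an unadjusted p under 0.05. Growth signalling genes had a median of 0.055 over 15 tested, with 0 called and 0 at an unadjusted p under 0.05. Mtor, the kinase itself, had a log2 difference of 0.23 ± 0.21 and Larp1 one of -0.26 ± 0.23. Myc, a driver of ribosome production, lay below the filter at 55.0 and 294 units in MCK-PPARb and 151 and 189 in non-transgenic muscle. The 74 tested genes of mitochondrial ribosomal proteins had a median of 0.046, with 0 called.

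Markers of muscle fibres and of other cell types were tested in the same way. The Schwann cell list summed to 31242 and 34849 units in MCK-PPARb muscle, against 18719 and 20256 in non-transgenic muscle. All 4 of its tested genes were higher in MCK-PPARb muscle without overlap (100%), against 22.2% of all genes, with S100b below the filter. None of the 4 passed, and the lowest adjusted p was that of Mbp, a myelin protein (log2 difference 0.96, adjusted p = 0.0928 with limma). The adipocyte list summed to 66856 and 48035 in MCK-PPARb and 109389 and 118587 in non-transgenic muscle, where Car3, also a muscle gene, made up most of the sum. Of its 5 tested genes 0 passed. In MCK-PPARb muscle 3 of them were higher without overlap (60%), against 22.2% of all genes. These were Adipoq (log2 difference 1.03), Retn (1.02) and Plin4 (0.44). Car3 alone was lower without overlap (20%, against 20.8% of all genes), with a log2 difference of -1.46 (adjusted p = 0.0939 with limma). Fabp4 had a difference of -0.23, and Lep, Cidec and Pck1 were below the filter. The muscle fibre list had a median log2 difference of -0.29 over 17 tested genes, and summed to 1940450 and 1727990 in MCK-PPARb and 2948080 and 1689500 in non-transgenic muscle. In that list 4 differences were above 0 (23.5%), against 51.2% of all genes, and 13 were below, and none of the 17 passed. The smallest p was that of Tnnt1, the troponin T of slow fibres (log2 difference 1.30, adjusted p = 0.152 with limma), and Myh7, the slow myosin, had a difference of 0.67. Satellite cell genes had a median of -0.12 over 4 tested genes, with Pax7, Myf5 and Vcam1 below the filter. Among lymphocyte and macrophage genes 1 of 9 passed, the antibody heavy chain gene Ighm (log2 difference -3.96, adjusted p = 0.0154 with limma). Ighm read 196 and 214 units in MCK-PPARb muscle, against 5033 and 2010 in non-transgenic muscle. Both MCK-PPARb signals lay under the filter level of 444 units, so Ighm was tested only through its non-transgenic signals. The call on Ighm was lost with the mean of the gene's probe sets (-1.40, adjusted p = 0.338 with limma) and without the intensity trend (adjusted p = 0.0552). Of the 9 genes 5 had differences above 0 (55.6%), against 51.2% of all genes. In MCK-PPARb muscle 3 were higher without overlap (33.3%), against 22.2% of all genes, and 1 was lower (11.1%), against 20.8%. The 3 higher ones were the macrophage gene Adgre1 (0.83, adjusted p = 0.287 with limma), Cd74, a partner of class II antigen presentation (0.72, adjusted p = 0.243), and Cd14 (0.56). None of these passed. Apart from Ighm, the other genes pointed both ways, with H2-Aa at 0.36, Cd68 at 0.12, Csf1r at -0.016, Lyz2 at -0.25 and H2-Ab1 at -1.08. The medians were 0.079 for 2 blood genes, -0.099 for 7 endothelial genes and -0.15 for 6 fibroblast genes, with 0 called in each. The part of these cells in the ribosomal protein signals was not tested.

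**Figure D4:**
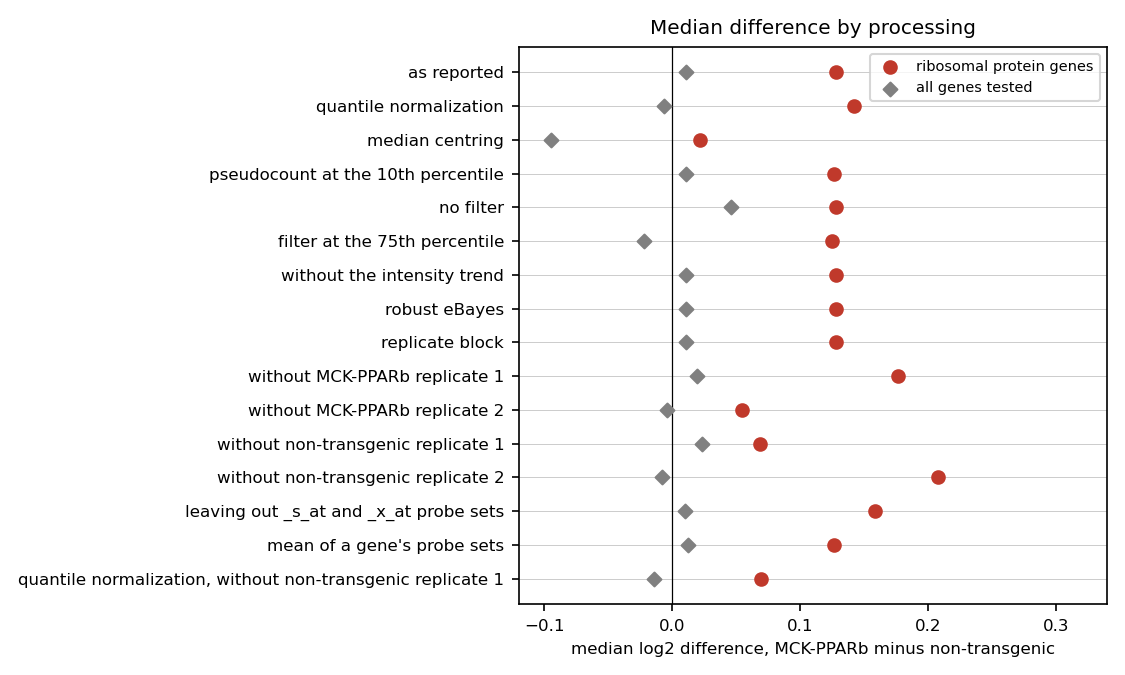
Median log2 difference (MCK-PPARb minus non-transgenic) of the ribosomal protein genes (red circles) and of all genes tested (grey diamonds) as reported and under the alternatives listed. The red points run from 0.022 with median centring to 0.21 without non-transgenic replicate 2, and each lies above its grey point.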

How the data were processed

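Each array has 1 deposited intensity for every probe set, not on a log scale. Per the submitters' processing notes the tools were MAS5 and GCOS, with no version stated there. A trimmed mean of 1501 on every array shows a common scaling. From 22690 probe sets 64 controls were removed, which left 22626: 20380 annotated with 1 symbol, 691 with several and 1555 with none here. The gene number led to a current symbol in the GRCm38.p6 gene table for 20351. The log2 of each deposited signal was taken without a pseudocount, and 11313 probe sets above the median mean signal were kept. limma 3.58.1 in R 4.3.3 (lmFit, eBayes with an intensity trend, Benjamini-Hochberg adjustment over kept probe sets) compared the groups, with 5.38 prior and 2 residual degrees of freedom. An exact permutation test of 2 against 2 arrays cannot go below p = 0.333. The number of arrays limits the precision.

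Named were called members, up to 8 members with the largest difference in each direction without overlap, the 5 of highest and of lowest mean signal, genes always reported, and up to 4 genes of smallest p per list. Mdm2, marker genes named as below the filter, and the members Rps25, Rpl12 and Rpl14 were added with their values in view. The members and lists were chosen with earlier results of these data known. The fit was tested on simulated data first. At an adjusted p under 0.05 it recovered 0.6% of log2 changes of 0.5, 7.5% of 1, 66.3% of 2 and 96.2% of 4. Of its calls 5.27% were false. A change of 2-fold or less was thus rarely called in the simulated data. The simulated variances came from the fitted model itself, with independent noise and no shift shared over an array. The share of false calls therefore does not test that model on the real arrays. Alternatives were other scalings, filters, pseudocount, variance models, a replicate block, leaving out each array, and other choices of probe set.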

Additional observations from a re-analysis of the deposited data

How the results depend on the processing

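The median difference of the members kept its direction under all alternatives and moved by less than its spread between replicates (0.12). That spread was about as large as the median difference itself (0.13), and all alternatives drew on the same 4 arrays. The median difference ran from 0.022 (median centring) to 0.21, and from 0.055 to 0.21 with an array left out. No member was called under the other scalings, filters, pseudocount, variance models, choices of probe set or an adjusted p under 0.1. With a replicate block, 1 member with a lower signal was called, Rpl22l1 (adjusted p = 0.0490). The labels do not pair the arrays. The gaps between replicates correlated between the groups at 0.28 over all kept probe sets and at -0.58 over the members, though replicate 2 lay above replicate 1 for 36 of 43 members in MCK-PPARb and 33 of 43 in non-transgenic muscle. With an array left out, 0 to 1 members were called higher and 0 to 1 lower, and the groups did not overlap for 15 to 29 higher (34.9% to 67.4%) and 3 to 13 lower members (6.98% to 30.2%), against 35.0% to 39.0% and 31.8% to 36.9% of all genes. With median centring 2 members lay higher without overlap (4.65%), against 13.8% of all genes, and 2 lower (4.65%), against 26.8%. Quantile normalization with non-transgenic replicate 1 left out was chosen after seeing the data. It gave Rpl22l1 a log2 difference of -1.48. The groups then did not overlap for 20 members with higher signals (46.5%), against 35.5% of all genes. They did not overlap for 16 with lower signals (37.2%), against 37.7%, so that share was near that of all genes. The cause of these changes was not tested. Of 24 named members, 11 uncalled ones changed sign under some alternative (27 of 351 values): Rpl7, Rpl7l1, Rpl22, Rpl27a, Rpl39, Rplp0, Rps2, Rps4x, Rps10, Rps29 and Rpsa.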
